A study of Homo sapiens with 60 samples.

Results

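The genes described here are the 33 members of the ATF4 arm of the integrated stress response. They were taken by name from a table of 60675 gene entries, of which 35799 held a count in at least 1 library, and all 33 were found. The measurements are RNA sequencing of HT29, an established line of human colorectal adenocarcinoma cells, collected 24 h after addition of 70% ethanol extracts of 6 medicinal plants, of 2 formulas, or of the dimethyl sulfoxide (DMSO) vehicle. Astragali Radix, Cinnamomi Cortex, Cnidii Rhizoma, Paeoniae Radix and Rehmanniae Radix Preparata were each given at 20, 100 and 500 µg/mL (low, medium and high) with 3 libraries a dose. Angelicae Gigantis Radix was given at 12.8, 64 and 320 µg/mL with 2 libraries a dose, numbered 2 and 3. The multi-herb formulas, Samul-tang and Sagunja-tang, were given at 20, 100 and 500 µg/mL with 1 library a dose. The vehicle had 3 libraries, at 0.1% DMSO by the sample labels and 2% by the text on the series, and no label gives the solvent that came with an extract. All groups are the same unmodified cell line.

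Cells use the integrated stress response to meet amino acid shortage, misfolded protein in the endoplasmic reticulum (ER), heme shortage and viral RNA. Sensor kinases phosphorylate the translation factor eIF2, which lowers general translation while the mRNA of ATF4 is translated more, and ATF4 then activates genes together with partners of the C/EBP family. Its targets include enzymes and transporters for amino acids, and also a later group around the factors ATF3 and DDIT3 (also known as CHOP) that slows growth signalling, restores translation and can favour cell death. ATF4 is controlled largely at translation, so its own transcript level does not report its protein.

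Promoter sequences are shown because ATF4 and C/EBP factors bind a composite DNA element together, and the members that carry it can then be followed in the responses below. In RefSeq promoter windows of 250 bases before to 50 bases after each transcription start (GRCh38.p14), 26 of the 33 members were matched, and the letters TGATGNAA, searched on both strands, were present in 6 of them (23.1%), against 4.46% of 27305 genes. Capitals mark the matched letters, each line runs 5′ to 3′ on the gene's strand, and CHAC1 holds the reverse complement.

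ATF3 (chr1:212565205-212565234, plus strand): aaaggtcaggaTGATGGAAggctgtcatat
ASNS (chr7:97872458-97872487, minus strand): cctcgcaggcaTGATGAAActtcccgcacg
CHAC1 (chr15:40953251-40953280, plus strand): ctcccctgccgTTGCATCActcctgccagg
CEBPG (chr19:33374060-33374089, plus strand): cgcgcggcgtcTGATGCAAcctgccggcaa
MTHFD1L (chr6:150866346-150866375, plus strand): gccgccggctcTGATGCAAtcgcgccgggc
JDP2 (chr14:75427995-75428021, plus strand): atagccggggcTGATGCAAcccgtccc

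The first matched base lay 191 bases before the start site in ATF3, 68 in ASNS, 209 in CHAC1, 42 in CEBPG and 16 in JDP2. MTHFD1L has several listed starts, and the same 8 letters lay 129 and 90 bases before 2 of them and 25 bases after another. CEBPG, JDP2 and MTHFD1L share the letters TGATGCAA, CHAC1 has them on the other strand, ATF3 has TGATGGAA and ASNS has TGATGAAA. The letters TGACNNNGC, an NRF2-type element, were in 9 members (34.6%) against 16.1% of genes, and the ER stress element was in 0 members against 0.0916% of genes. A match is a description of these windows and not evidence of binding.

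Library totals were 17798500 to 31134179 counts. Levels are CPM, counts scaled to a common library size with trimmed-mean (TMM) factors, and changes are log2 changes ± SE from edgeR with Benjamini-Hochberg adjusted p over all genes tested; a gene is called when adjusted p is under 0.05. Nothing in the labels ties the libraries of a group to independent cultures; the p-values therefore reflect only the spread between libraries, which may be technical. Of 10 colon epithelial markers the summed level was 11900 to 12300 CPM in vehicle, 9920 to 10300 with Cnidii Rhizoma high and 16800 to 21800 with Astragali Radix high. This colon sum was mostly KRT8 and KRT18, with medians of 6370 and 3910 CPM over all libraries. The medians of CDX1, CDX2 and CDH17 were 0.749, 4.18 and 4.27 CPM. The lung genes NKX2-1, SFTPB and SFTPC were at or near 0. Of 5 fibroblast genes COL1A2, COL3A1 and DCN were at or near 0, and the sum with COL1A1 and LUM was 2.08 to 2.73 CPM in vehicle and 5.63 to 8.95 with Astragali Radix high. The sum of 4 leukocyte genes, mostly CD14 with PTPRC at or near 0, was 3.12 to 3.66 CPM in vehicle and 1.68 to 8.56 with Astragali Radix high; the part of these markers in the results was not tested. The 3 Astragali Radix high-dose libraries stood apart from one another: the mitochondrial share of counts was 1.99%, 6.72% and 7.82%, against 6.91% to 12.3% in all other libraries. Their chi-square per gene between pairs was 91.18 to 223.3, against 1.92 to 13.74 in the other groups, so this group was tested in a separate fit of its 6 high- and low-dose libraries and left out of the shared fit of 51 libraries that served the other comparisons.

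Of the 33 members, 30 passed the filter on low counts. CBS and STC2 had at most 0.952 and 0.178 CPM in any library of the extracts, and INHBE at most 0.952 CPM, each highest in Astragali Radix high-dose library 3. These 3 genes have no test in the main fits below. In alternative fits of Astragali Radix high, INHBE was called higher with all 54 libraries and CBS without a filter. The summed share of all counts held by the 33 members was 0.169% to 0.181% in vehicle and 0.183% to 0.195% at the low doses of the 6 plants. It was 0.207% to 0.21% with Paeoniae Radix high, 0.23% to 0.238% with Cnidii Rhizoma high and 0.36% to 0.455% with Astragali Radix high. In the other high-dose plant groups it was 0.187% to 0.196%, which overlaps the low-dose range. In cultured populations, a change in RNA per cell and a change in the share of responding cells cannot be told apart.

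**Figure D1:**
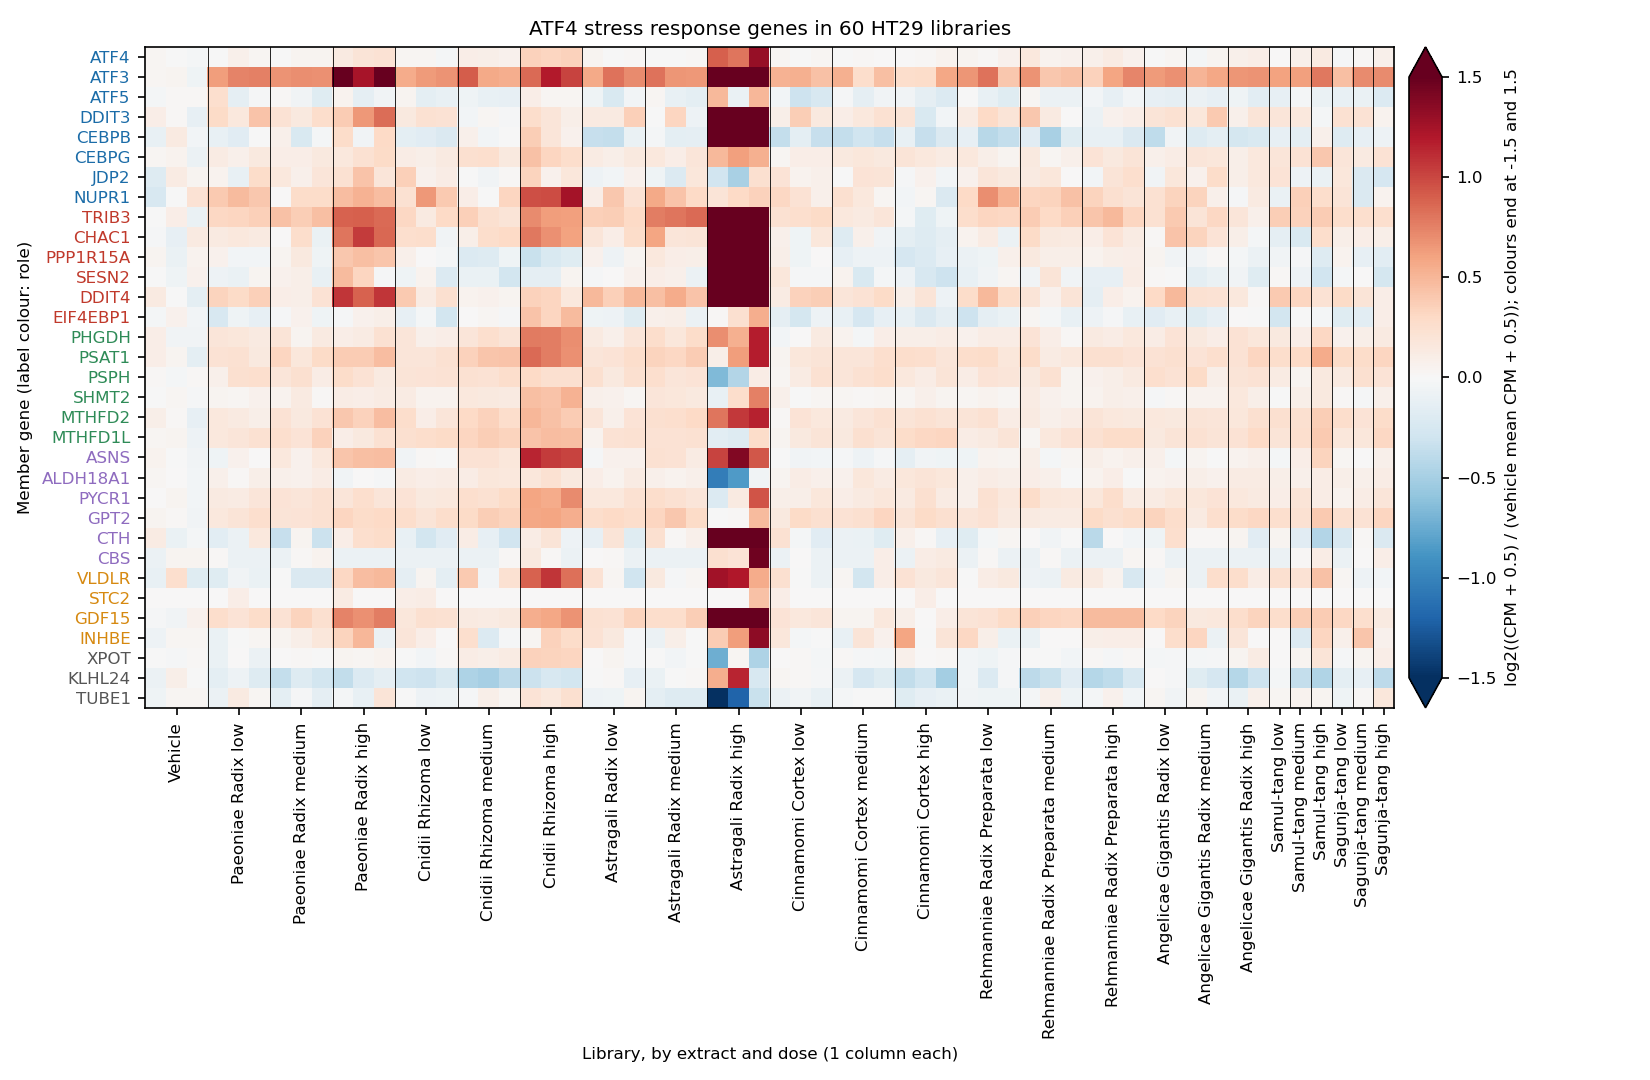
Heat map of the 33 members (rows) in 60 libraries (columns, grouped by extract and dose), coloured by log2 of CPM + 0.5 relative to the vehicle mean, with colours ending at 1.5 in either direction. Label colours give the role: blue, transcription factors; red, stress effectors; green, serine and one-carbon enzymes; purple, other amino acid enzymes; orange, secreted and surface proteins; grey, tRNA export and others. The 3 Astragali Radix high columns are the strongest, Cnidii Rhizoma high is darkest in NUPR1, ASNS, PHGDH, PSAT1 and VLDLR, beside ATF3, and Paeoniae Radix high in ATF3, DDIT4, TRIB3 and CHAC1.

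Cnidii Rhizoma at 500 µg/mL raised amino acid and one-carbon enzymes of the ATF4 group while 2 of its 6 stress effectors were not called and 1 fell. Of the 30 members tested, 20 were higher and 1 was lower than at 20 µg/mL, where 12.0% and 11.6% of all 16606 genes tested were called higher and lower. The median change of the members was 0.33, against 0 for all genes. Of the serine and one-carbon enzymes 5 of 6 were higher, of the other amino acid enzymes 3 of the 5 tested, of the transcription factors 5 of 8 and of the stress effectors 3 of 6, with 1 of these lower. Of the 6 members with the composite element 5 were higher (ASNS, ATF3, CEBPG, CHAC1 and MTHFD1L), and JDP2 was at 0.01 ± 0.12.

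ASNS (ENSG00000070669, chromosome 7, 97852118 to 97872542, minus strand, GENCODE v29 on GRCh38) makes asparagine from aspartate and glutamine. Its level was 50, 52.5 and 51.8 CPM at the low dose, 60.2, 60.3 and 58.7 at the medium dose and 115, 108 and 105 at the high dose of Cnidii Rhizoma. The 3 doses did not overlap, and the high dose was 2.13-fold the low dose (log2 1.09 ± 0.04, adjusted p = 5.5e-26). Vehicle libraries had 54.1, 51.9 and 50 CPM, which overlaps the low dose. An unnamed transcript, AC079781.5, overlaps ASNS exons on the same strand, so reads in that overlap cannot be assigned to one of them with certainty.

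PHGDH (ENSG00000092621, chromosome 1, 119648411 to 119744226, plus strand) catalyses the first step of serine synthesis from a glycolytic intermediate. It was at 28.4, 26.3 and 26.7 CPM at the low dose and 43.1, 42.7 and 40.8 at the high dose, without overlap (log2 0.64 ± 0.05, adjusted p = 6.8e-15). PSAT1, which carries out the next step, was at 84.5, 84.4 and 86.9 CPM and then 134, 126 and 120 (0.57 ± 0.05, adjusted p = 2.2e-13). PSPH, the last enzyme of the pathway, did not pass the test (0.05 ± 0.05). Relative to the low dose, the chain was thus raised at its first 2 steps and not detectably at the last one. PHGDH, PSAT1 and PSPH were all called higher against vehicle. SHMT2, the mitochondrial enzyme that turns serine into glycine and a one-carbon unit, rose by 0.40 ± 0.03, and the mitochondrial folate enzymes MTHFD2 and MTHFD1L rose by 0.26 ± 0.04 and 0.19 ± 0.04. In proline synthesis, PYCR1, which makes proline, rose (0.45 ± 0.04), while ALDH18A1, the entry enzyme, was at 0.07 ± 0.03 (adjusted p = 0.12). ALDH18A1 was called higher against vehicle. GPT2, the mitochondrial alanine transaminase, rose by 0.33 ± 0.04. CTH, which releases cysteine from cystathionine, was at 0.30 ± 0.14 and was not called.

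Among the regulators under Cnidii Rhizoma, the ATF4 transcript itself (ENSG00000128272, chromosome 22, 39519695 to 39522685, plus strand) was at 253, 254 and 244 CPM at the low dose and 316, 310 and 316 at the high dose. The groups did not overlap and the change was 0.33 ± 0.03 (adjusted p = 3.0e-13). CEBPB and CEBPG, C/EBP partners of ATF4, rose by 0.38 ± 0.09 and 0.23 ± 0.04. The CEBPB call was lost in the fit of all 54 libraries and with vehicle as reference. ATF3, a repressor and later-stage stress factor, went from 2.75, 2.95 and 3.02 to 3.48, 4.55 and 3.96 CPM (0.46 ± 0.13), a call lost without high-dose library 2. NUPR1, a small stress-induced chromatin protein, went from 12, 20 and 15 counts to 25, 29 and 37 (1.02 ± 0.23, adjusted p = 0.00057), the lowest-count gene among those called. DDIT3, the proapoptotic factor CHOP, was at 5.99, 6.36 and 6.3 CPM and then 6.52, 6.12 and 5.74, and its groups overlapped (log2 -0.02, 95% interval -0.25 to 0.21). ATF5 (0.12 ± 0.07) and JDP2, a bZIP repressor, were also not called. The strand setting of the counting is not stated. DDIT3 exons overlap MARS and MBD6 on the other strand, MTHFD2 overlaps SLC4A5, and ATF5 overlaps NUP62 and IL4I1. Exons of DDIT4, VLDLR, CEBPB, SHMT2, PYCR1, TUBE1 and JDP2 also overlap genes on the other strand. PYCR1 overlaps MYADML2 on the same strand as well. Small changes in all of these members are therefore uncertain.

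The stress effectors split under Cnidii Rhizoma. TRIB3, a pseudokinase that restrains AKT and ATF4, rose by 0.41 ± 0.05, CHAC1, which degrades glutathione, by 0.61 ± 0.12, and EIF4EBP1, a translation inhibitor, by 0.56 ± 0.06. PPP1R15A (ENSG00000087074, chromosome 19, 48872392 to 48876057, plus strand), the phosphatase subunit also known as GADD34 that reverses eIF2 phosphorylation, was at 40, 38.4 and 37.4 CPM at the low dose and 30.2, 32.5 and 33.4 at the high dose. All 3 high-dose libraries were below all 3 low-dose libraries, and PPP1R15A fell by 0.27 ± 0.05 on the log2 scale (adjusted p = 0.00013). SESN2 (log2 -0.01, 95% interval -0.20 to 0.19) and DDIT4 (0.02, -0.14 to 0.18), both inhibitors of mTORC1 signalling, were not called. DDIT4 was called higher against vehicle, and SESN2 was not. VLDLR, a lipoprotein receptor, had the highest change of the called members, from 3.05, 3.53 and 3.02 to 6.69, 7.72 and 6.44 CPM (1.12 ± 0.13, adjusted p = 5.2e-09). GDF15, a secreted stress hormone, rose by 0.39 ± 0.04, and XPOT, the tRNA exporter, by 0.34 ± 0.03.

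Genes of the pathway outside the members also moved with Cnidii Rhizoma high, where 12.0% of all genes were called higher and 11.6% lower. Of 15 chaperones and factors of the ATF6 and XBP1 arm of the ER stress response all 15 were higher (median 0.72), led by DNAJB9 (1.31 ± 0.08), DNAJC3 (0.88 ± 0.04) and HSPA5 (0.85 ± 0.03). All 9 amino acid transporters tested were higher, with SLC7A11, the cystine importer, at 1.80 ± 0.05, and 15 of 20 cytosolic aminoacyl-tRNA synthetases were higher (median 0.16). Of 10 eIF2 kinases, regulators and sensors 3 were higher and 2 lower. The ER kinase EIF2AK3 (PERK) rose by 0.57 ± 0.05, and EIF2AK2 (PKR) fell by 0.17 ± 0.04 on the log2 scale. Library totals used for scaling changed the split of all called genes from 2000 higher and 1921 lower to 1384 and 2775, and left the members at 20 and 1.

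At 100 µg/mL Cnidii Rhizoma raised 3 members and lowered 0, against 1.67% and 1.36% of all genes. ASNS rose by 0.22 ± 0.04 (adjusted p = 0.0007), PSAT1 by 0.20 ± 0.05 and XPOT by 0.11 ± 0.03. Without low-dose library 2 only 1 of these calls was left, ASNS; PSAT1 was also lost without low-dose library 1 or medium-dose library 3. ATF4 (0.07 ± 0.03), DDIT3 (-0.22 ± 0.12), TRIB3 (0.02 ± 0.05), CHAC1 (0.07 ± 0.13), PHGDH (0.09 ± 0.05) and SESN2 (-0.10 ± 0.10) did not pass the test. PPP1R15A was called lower with library totals and with DESeq2.

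Relative to its low dose, Paeoniae Radix at 500 µg/mL raised the stress effectors of the group and few of its enzymes. Of the 30 members tested 16 were higher and 0 lower than at the low dose, against 5.35% and 4.00% of all 16606 genes, with a median of 0.20 against -0.01 for all genes. All 6 stress effectors were higher, as were 4 of 8 transcription factors and both tested secreted or surface proteins. Of the serine and one-carbon enzymes 2 of 6 were higher, and of the other amino acid enzymes 1 of 5. Against vehicle, PHGDH, PSAT1, PSPH, SHMT2, MTHFD2, MTHFD1L, ASNS, GPT2 and PYCR1 were called higher, as were all stress effectors but EIF4EBP1. ALDH18A1 and CTH were not called against vehicle. The smaller share of enzymes thus holds relative to the low dose only. Among the 6 members with the composite element, ASNS, ATF3 and CHAC1 were higher, and CEBPG (0.11 ± 0.04), MTHFD1L (-0.03 ± 0.05) and JDP2 (0.25 ± 0.12) were not called. Against vehicle CEBPG, MTHFD1L and JDP2 were called higher as well. With 1 library left out at a time 11 to 15 members were called: DDIT3 was lost without low 1, low 2, high 2 or high 3, SESN2 without low 1, low 2, high 1 or high 2, EIF4EBP1 without low 1, low 3, high 2 or high 3, XPOT without low 1 or low 3, and CEBPB without any library but high 2. EIF4EBP1 was also lost with DESeq2, library totals, no filter, the 2 groups alone, all 54 libraries and vehicle as reference. Under DESeq2 and library totals 5 of the 6 stress effectors were therefore called. CEBPB was lost with library totals, all 54 libraries and vehicle as reference.

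ATF3 (ENSG00000162772, chromosome 1, 212565334 to 212620777, plus strand) had the highest change, from 2.91, 3.2 and 3.22 CPM at the low dose to 6.29, 4.71 and 6.34 at the high dose. The groups did not overlap, and at the medium dose ATF3 was at 3.02, 3.09 and 3.06, inside the low-dose range (high against low 0.89 ± 0.12, adjusted p = 1.6e-06). CHAC1 (ENSG00000128965, chromosome 15, 40952962 to 40956519, plus strand) went from 2.94, 3.02 and 2.96 to 4.99, 6.01 and 5.21 CPM (0.86 ± 0.12, adjusted p = 1.7e-06). DDIT4 (ENSG00000168209, chromosome 10, 72273920 to 72276036, plus strand), also known as REDD1, went from 16.1, 15.5 and 16.3 to 27.2, 23.8 and 27.1 CPM (0.71 ± 0.08, adjusted p = 3.6e-09). In each of these 3 genes the high-dose libraries were above every low-dose and medium-dose library. TRIB3 went from 37.6, 37.8 and 38.7 to 56.2, 56.5 and 54.9 CPM (0.55 ± 0.05, adjusted p = 4.0e-11). PPP1R15A went from 39.8, 36.9 and 36.9 to 50.4, 52.1 and 51 CPM (0.43 ± 0.05, adjusted p = 4.0e-08), the opposite direction to Cnidii Rhizoma. SESN2 was at 10.8, 10.7 and 11.8 CPM and then 16.1, 14.4 and 11.3, so high-dose library 3 lay inside the low-dose range (0.33 ± 0.10, adjusted p = 0.020).

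DDIT3 was at 6.66, 6.03 and 7.37 CPM at the low dose and 7.13, 8.72 and 9.92 at the high dose of Paeoniae Radix, with an overlap of 1 library (0.37 ± 0.11, adjusted p = 0.028). GDF15 rose without overlap from 47.3, 45.5 and 47.6 to 66.2, 63.6 and 67.1 CPM (0.49 ± 0.04, adjusted p = 3.6e-12), VLDLR by 0.60 ± 0.14 and ATF4 by 0.15 ± 0.03. Of the enzymes, ASNS rose from 49.8, 54.3 and 52.3 to 69.5, 71.2 and 71.9 CPM (0.44 ± 0.04, adjusted p = 5.7e-11), MTHFD2 by 0.28 ± 0.04 and PSAT1 by 0.21 ± 0.05. PHGDH did not pass the test (log2 -0.01, 95% interval -0.10 to 0.09). Outside the members, 8 of 15 genes of the ATF6 and XBP1 arm, 6 of 9 amino acid transporters and 7 of 20 tRNA synthetases were higher. Of all genes 5.35% were called higher. DNAJB9 was at 0.47 ± 0.09 and SLC7A11 at 0.64 ± 0.05. At 100 µg/mL edgeR called 0 members of Paeoniae Radix, against 0.193% of all genes higher and 0.163% lower, and DESeq2 also called 0. By edgeR 4 members had an unadjusted p under 0.05, a count given without the share of all genes under that threshold.

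**Figure D2:**
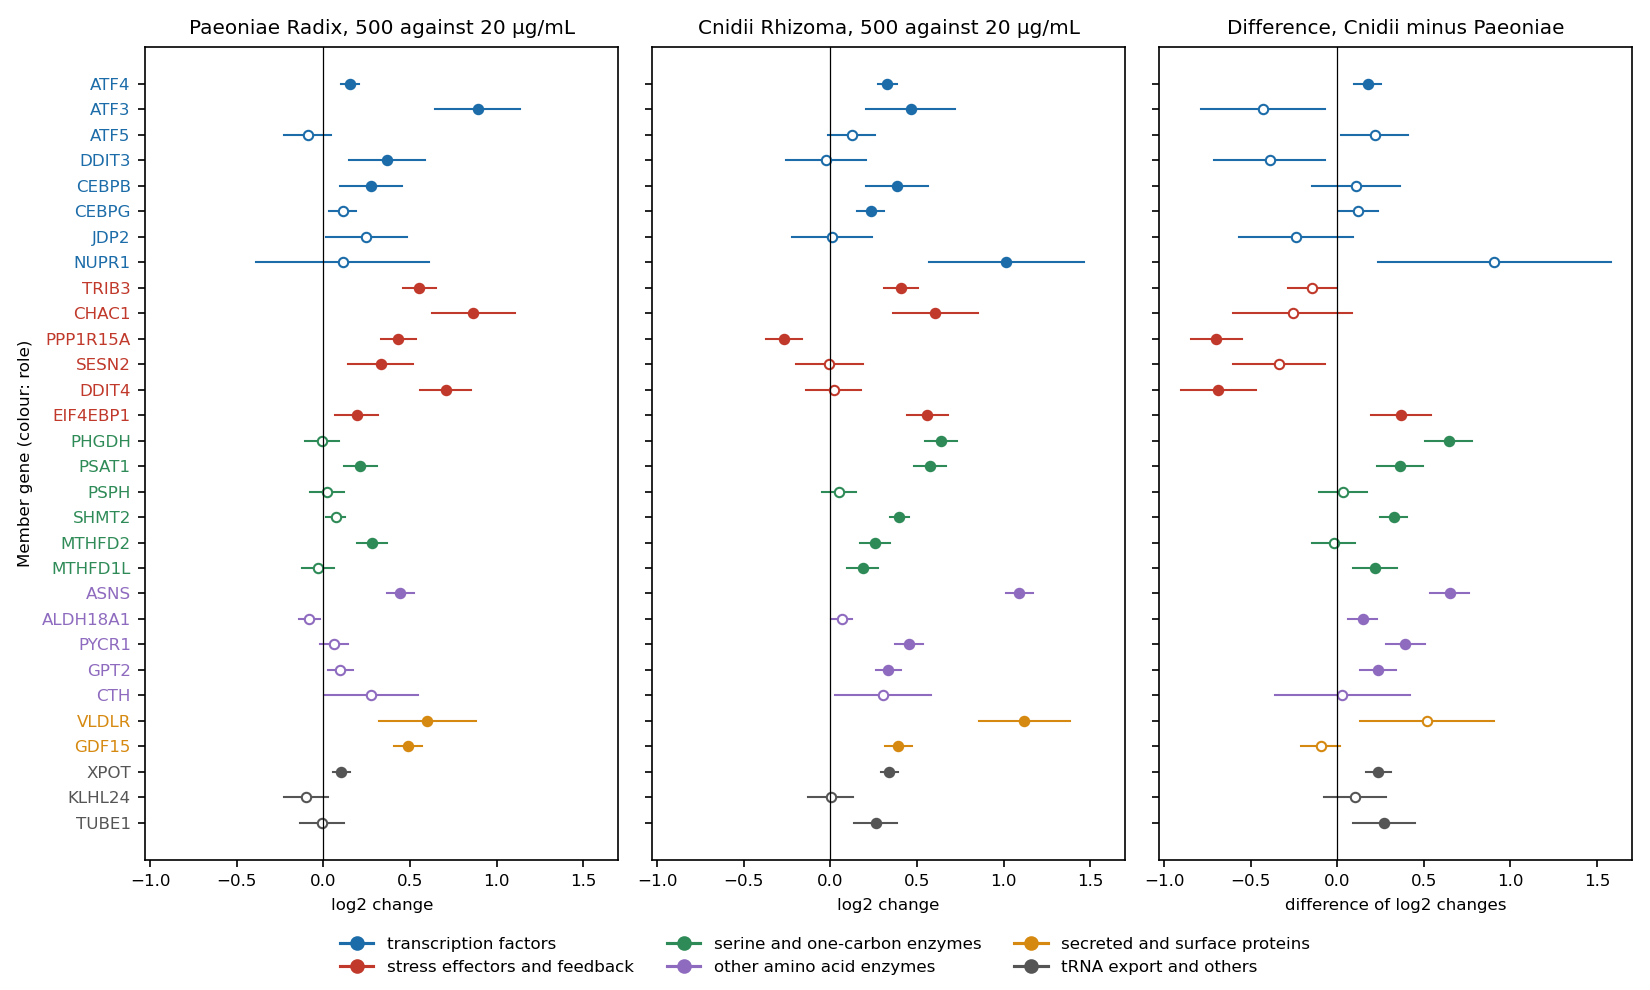
Log2 change between 500 and 20 µg/mL of the 30 tested members with Paeoniae Radix (left) and Cnidii Rhizoma (middle), and the difference of these changes (right), with 95% intervals from edgeR; filled points are called and colours give the role. PPP1R15A and DDIT4 lie left of 0 in the right panel, and ASNS and PHGDH lie right of 0.

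The difference between Cnidii Rhizoma and Paeoniae Radix was tested directly, as the dose change of one minus that of the other at 500 against 20 µg/mL. It was called for 14 members, 12 with a higher change under Cnidii Rhizoma and 2 with a lower one, against 7.32% and 7.82% of all genes. The 2 lower members were stress effectors: PPP1R15A (-0.70 ± 0.07, adjusted p = 5.7e-10) and DDIT4 (-0.69 ± 0.11, adjusted p = 7.4e-06). The higher ones included ASNS (0.65 ± 0.06, adjusted p = 2.1e-12) and PHGDH (0.64 ± 0.07, adjusted p = 7.8e-10). In all they were 4 of 6 serine and one-carbon enzymes, 4 of 5 other amino acid enzymes, ATF4, XPOT, TUBE1 and EIF4EBP1, itself a stress effector. TUBE1, a tubulin of the centrosome, lost its call in 8 of 12 fits without 1 library. The differences of MTHFD1L, ALDH18A1 and TUBE1 were not called with library totals or without a filter. With all 54 replicated libraries in 1 fit only ASNS, PHGDH and PPP1R15A were called. ATF3 (-0.43), CHAC1 (-0.26), DDIT3 (-0.39) and SESN2 (-0.34) had differences below 0 that did not pass the test. Outside the members, 13 of 15 genes of the ATF6 and XBP1 arm had a higher change under Cnidii Rhizoma, with a median difference of 0.64.

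The 2 extracts raised 12 members in common, which is 75% of the 16 raised by Paeoniae Radix and 60% of the 20 raised by Cnidii Rhizoma. Over all genes the shared set was 351, or 39.5% and 17.6% of the genes each raised. Including Astragali Radix high, 9 members were called higher with all 3 extracts: ATF4, ATF3, CEBPB, TRIB3, CHAC1, ASNS, MTHFD2, VLDLR and GDF15. Over all genes, 185 were called higher with all 3. The CEBPB call with Paeoniae Radix high (adjusted p = 0.0499 in edgeR) held in only 1 of 6 fits without 1 library. Each extract was compared with its own low-dose libraries.

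**Figure D3:**
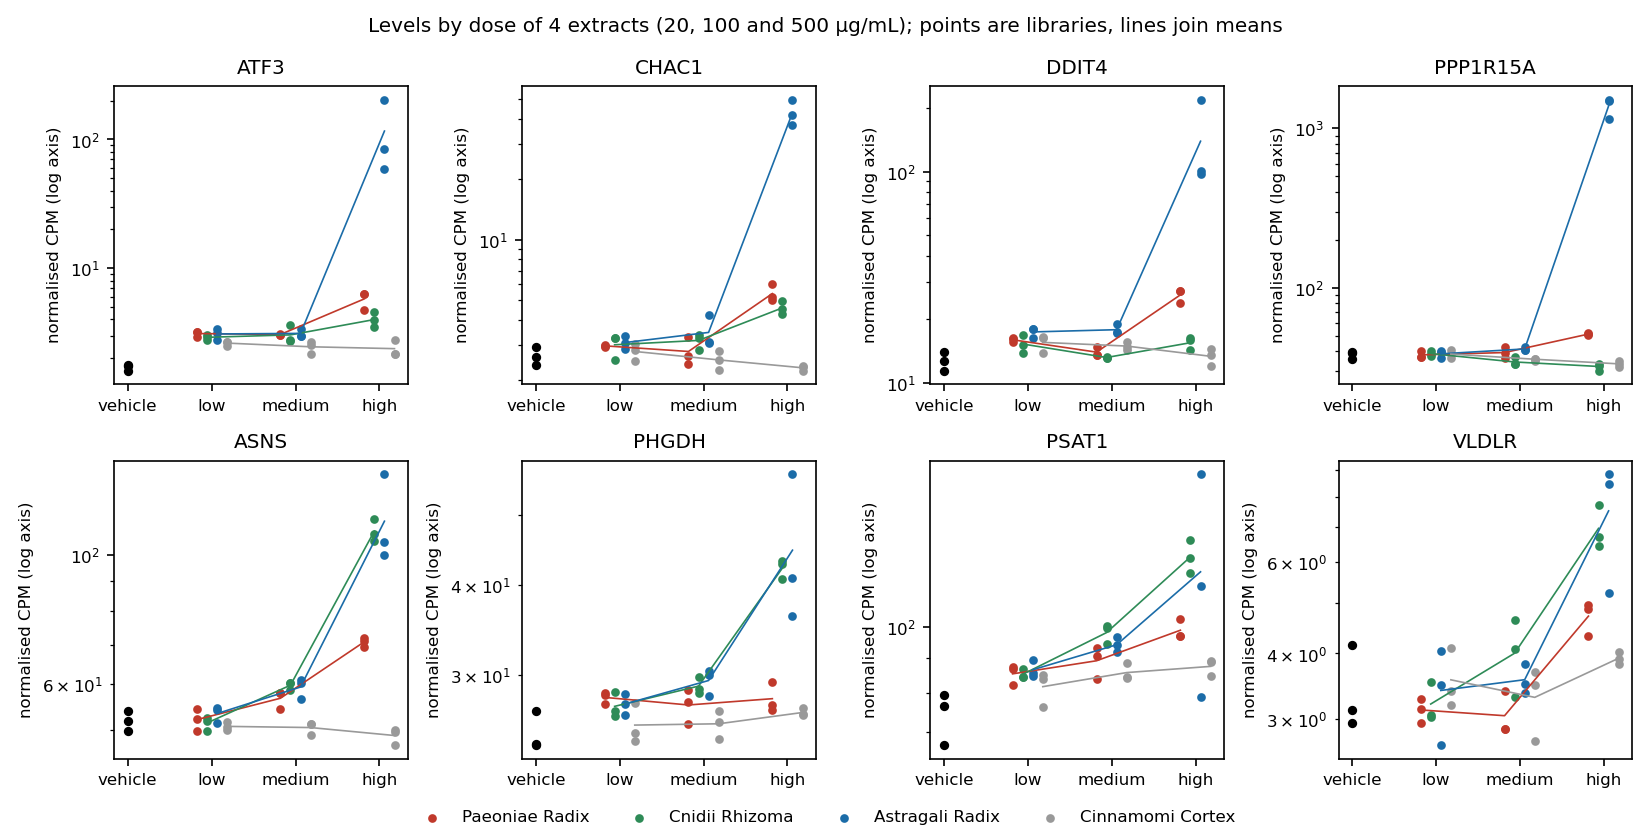
CPM (log axis) of 8 members in vehicle and at 20, 100 and 500 µg/mL (low, medium, high) of 4 extracts; points are libraries and lines join group means. ATF3, CHAC1, DDIT4 and PPP1R15A reach their highest levels with Astragali Radix high, PPP1R15A falls with Cnidii Rhizoma high, and ASNS and PHGDH reach similar levels with Cnidii Rhizoma and Astragali Radix high.

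Astragali Radix at 500 µg/mL gave the highest levels in the series for ATF4, ATF3, DDIT3, CEBPB, TRIB3, CHAC1, PPP1R15A, SESN2, DDIT4 and GDF15, whose 3 libraries each lay above all 57 others. In the fit of its own 6 libraries 16 members were higher and 0 lower, against 19.4% and 20.1% of 15251 genes, with a median of 0.67 against -0.08 for all genes. Of the transcription factors 5 of 8 were higher, of the stress effectors 5 of 6 and of the secreted and surface proteins both tested, while 2 of 6 serine and one-carbon enzymes and 2 of 5 other amino acid enzymes were. Of the 6 members with the composite element 4 were higher (ASNS, ATF3, CEBPG and CHAC1), and JDP2 and MTHFD1L were not called. Scaling by library totals moved the median of all genes by -0.27 and gave 14 members higher and 4 lower (ALDH18A1, PSPH, TUBE1 and XPOT), with 2018 higher and 4700 lower among all genes in place of 2958 and 3064. Leaving out 1 library at a time gave 13 to 22 calls.

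PPP1R15A was at 39.9, 36.2 and 39.2 CPM at 20 µg/mL, at 42.4, 40.9 and 40.5 at 100 µg/mL and at 1515, 1140 and 1489 at 500 µg/mL. The high dose stood 35.9-fold above the low dose (log2 5.17 ± 0.20, adjusted p = 8.4e-05), and the medium dose did not pass the test. ATF3 was at 2.76, 3.38 and 3.11 CPM and then 59.4, 85 and 204 (5.23 ± 0.52, adjusted p = 0.00076). DDIT3 (ENSG00000175197, chromosome 12, 57516588 to 57521737, minus strand) was at 5.93, 5.91 and 6.97 CPM and then 113, 105 and 123 (4.18 ± 0.18, adjusted p = 9.4e-05). SESN2 (4.16 ± 0.28), CHAC1 (3.79 ± 0.19), DDIT4 (3.00 ± 0.35), TRIB3 (2.63 ± 0.19) and CEBPB (2.39 ± 0.30) followed, each with every high-dose library above every low-dose library. GDF15 rose by 2.33 ± 0.15 and CTH, the cysteine-producing enzyme not called with Paeoniae Radix or Cnidii Rhizoma high, by 2.23 ± 0.27. ATF4 went from 256, 249 and 251 to 463, 433 and 617 CPM (1.00 ± 0.18, adjusted p = 0.0057).

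Several enzymes varied between the 3 Astragali Radix high-dose libraries. ASNS was at 105, 137 and 99.7 CPM against 51.4, 54.5 and 54.3 at the low dose (1.09 ± 0.18, adjusted p = 0.0036). PHGDH was at 40.9, 36.2 and 57 against 27.3, 26.4 and 28.2 (0.71 ± 0.20, adjusted p = 0.029), a call lost without any one of the low-dose libraries, as was that of CEBPG (0.42 ± 0.14). VLDLR (1.14 ± 0.28) lost its call without low-dose library 2 or 3. PSAT1 was at 78.8, 115 and 168 CPM against 84.7, 85.5 and 89.5, so library 1 was below the low dose and library 3 far above it (0.48 ± 0.27, not called). ALDH18A1 was at 85.9, 98.2 and 171 against 189, 183 and 194, and TUBE1 at 2.3, 4.62 and 8.86 against 10.7, 10.7 and 11.6; both lay below the low dose in all 3 libraries but were not called (-0.67 ± 0.27 and -1.06 ± 0.43). Both were called lower with the replicate block, with library totals and in the fit of all 54 libraries. Library 3 had the highest level of 19 of the 30 members, library 2 of 7 and library 1 of 4. Library 1, with the lowest mitochondrial share, had the highest CEBPB and TRIB3, at 390 and 279 CPM, against 190 and 222 and against 241 and 193 in libraries 2 and 3. The part of library quality in these values was not tested.

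**Figure D4:**
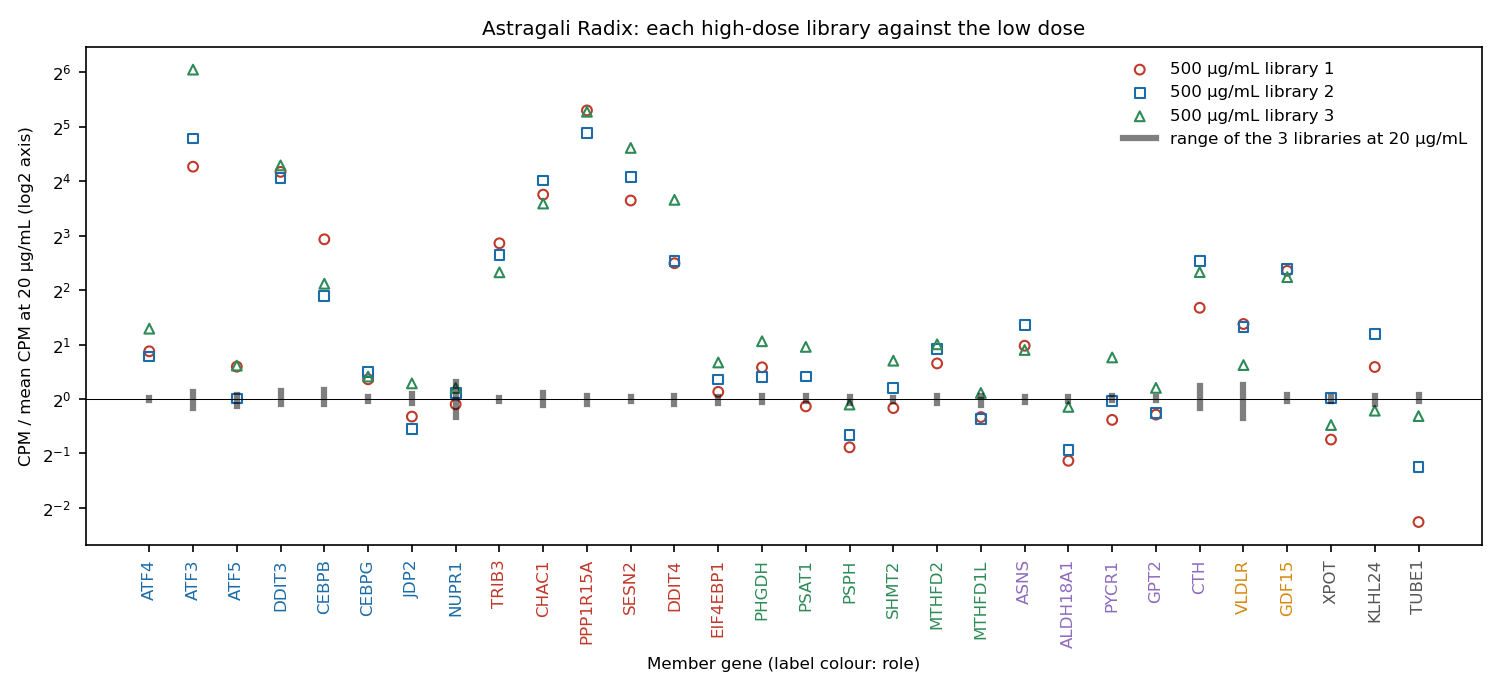
CPM of each Astragali Radix high-dose library (symbols) divided by the mean of the low dose, for the 30 tested members on a log2 axis; grey bars span the 3 low-dose libraries. ATF3, DDIT3, CEBPB, TRIB3, CHAC1, PPP1R15A, SESN2 and DDIT4 lie far above the bars in all 3 libraries, while PSAT1, PYCR1 and SHMT2 lie on both sides of 1.

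Outside the members, 12 of 15 genes of the ATF6 and XBP1 arm were higher with Astragali Radix high (median 1.24), led by DNAJB9 (4.16 ± 0.22) and HERPUD1 (2.95 ± 0.30). Of 9 amino acid transporters 4 were higher, with SLC3A2 at 3.43 ± 0.19, and of 20 tRNA synthetases 4 were higher and 2 lower, where 19.4% of all genes were called higher and 20.1% lower. EIF2AK3 rose by 1.25 ± 0.26, and EIF2AK2, OMA1 and IMPACT were lower (-1.48 ± 0.27, -1.20 ± 0.23 and -0.67 ± 0.17).

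Tested against the Cnidii Rhizoma change in a fit of 12 libraries, the Astragali Radix change was higher for 12 members and lower for 2, against 16.9% and 20.1% of 16001 genes. PPP1R15A differed most (5.43 ± 0.18, adjusted p = 1.9e-08), then ATF3 (4.77 ± 0.55), DDIT3 (4.20 ± 0.16) and SESN2 (4.17 ± 0.29). This fit shares its estimate of spread between the Astragali Radix high-dose libraries and the less variable groups. Its SEs and p-values may therefore understate the uncertainty of the Astragali Radix change. ASNS, PHGDH and PSAT1 were not among the called differences, and a missed test does not show that the 2 extracts act alike on them. Of the 2 lower ones, XPOT (-0.70 ± 0.22) lost its call in 8 of 12 fits without 1 library and TUBE1 (-1.32 ± 0.44) in 10. Without Astragali Radix high-dose library 3 the number of called members rose from 14 to 22. With library totals 12 members were higher and 7 lower.

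At 100 µg/mL Astragali Radix raised 3 members and lowered 0 with TMM scaling, against 6.53% and 9.40% of all genes; with library totals TRIB3 alone was higher and TUBE1 and XPOT were lower. TRIB3 went from 38.8, 39.1 and 37.3 to 51.6, 53.1 and 54.5 CPM, without overlap (0.47 ± 0.05, adjusted p = 6.6e-10). ASNS rose by 0.15 ± 0.04, a call lost without low-dose library 1, and SHMT2 by 0.11 ± 0.03. ATF4 (-0.02 ± 0.03), DDIT3 (-0.13 ± 0.12), CHAC1 (0.16 ± 0.12), PSAT1 (0.12 ± 0.05), PHGDH (0.11 ± 0.05) and SESN2 (0.02 ± 0.09) did not pass. Scaling by totals changed the split of all genes from 1085 higher and 1561 lower to 311 and 2459. Compared directly at this dose, the Cnidii Rhizoma change was lower than that of Astragali Radix for TRIB3 (-0.45 ± 0.07, adjusted p = 2.1e-05) and PPP1R15A (-0.27 ± 0.07) and higher for XPOT (0.15 ± 0.04), 1 higher and 2 lower in all against 3.67% and 1.47% of genes. The PPP1R15A difference was lost in 5 of 12 fits without 1 library.

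With Cinnamomi Cortex at 500 µg/mL 2 members were higher and 3 lower, against 3.01% and 2.86% of all genes; with library totals 0 were higher and 4 lower (GDF15 joined the lower ones). TRIB3 was at 35.2, 36 and 36.7 CPM at the low dose and 29.6, 26.4 and 28.7 at the high dose, without overlap, and fell by 0.35 ± 0.05 on the log2 scale (adjusted p = 2.5e-05). The high-dose TRIB3 values overlapped the vehicle values of 29.9, 32.2 and 28.2. KLHL24, a ubiquitin ligase adaptor, fell by 0.41 ± 0.06 and PPP1R15A by 0.20 ± 0.05. MTHFD1L (0.17 ± 0.04) and ALDH18A1 (0.10 ± 0.03) were higher. Only the calls of TRIB3 and KLHL24 held without any 1 library. ATF4 (0.00 ± 0.03), DDIT3 (-0.24 ± 0.12), CHAC1 (-0.27 ± 0.14), ASNS (-0.05 ± 0.04), PSAT1 (0.10 ± 0.05), PHGDH (0.06 ± 0.05) and SESN2 (-0.26 ± 0.10) did not pass.

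With Rehmanniae Radix Preparata at 500 µg/mL 1 member was higher and 2 were lower, against 0.626% and 0.674% of all genes. GDF15 was at 45.2, 45.7 and 48 CPM and then 54.8, 54.8 and 54.9, without overlap (0.24 ± 0.04, adjusted p = 0.00014). DDIT4 went from 15.4, 17.9 and 15.4 to 11.5, 13.6 and 13.1 CPM, inside the vehicle range of 11.4 to 13.9 (-0.35 ± 0.08, adjusted p = 0.013). KLHL24 fell by 0.27 ± 0.06. DDIT4 lost its call in 2 of 6 fits without 1 library (high 1 or low 2 left out) and KLHL24 in 4 of 6 (high 1, high 2, low 1 or low 3). ATF4 (0.05 ± 0.03), DDIT3 (-0.20 ± 0.12), TRIB3 (0.11 ± 0.05), CHAC1 (0.13 ± 0.13), ASNS (0.06 ± 0.04), PSAT1 (-0.01 ± 0.05), PHGDH (0.04 ± 0.05) and SESN2 (0.01 ± 0.10) did not pass.

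Angelicae Gigantis Radix, with 2 libraries a dose and other doses than the rest, had 0 members higher and 1 lower at 320 against 12.8 µg/mL, where 0.596% and 0.542% of all genes were called. KLHL24 was at 23.9 and 23.4 CPM and then 17.7 and 19.1 (-0.36 ± 0.08, adjusted p = 0.0073), a call lost without 3 of the 4 libraries in turn (high 2, low 2 and low 3). ATF4 (0.07 ± 0.03), DDIT3 (-0.08 ± 0.14), TRIB3 (-0.19 ± 0.06), CHAC1 (-0.24 ± 0.16), ASNS (0.04 ± 0.05), PSAT1 (0.04 ± 0.06), PHGDH (0.04 ± 0.06) and SESN2 (-0.13 ± 0.12) did not pass. At the medium doses of Angelicae Gigantis Radix, Rehmanniae Radix Preparata and Cinnamomi Cortex edgeR called 0 members and 0 genes of all. DESeq2 also called 0 members in each. By edgeR 3, 5 and 4 members had an unadjusted p under 0.05. The share of all genes under that threshold is not given here, so these counts say nothing particular to the members.

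KLHL24 was lower at the high dose of these last 3 extracts, with CPM of 16.6 to 20.1 over their 8 libraries, while the low doses had 20.6 to 24.3. It was at 18.3 to 21.6 with Paeoniae Radix high (-0.10 ± 0.07) and 18.9 to 20.1 with Cnidii Rhizoma high (0.00 ± 0.07), where the low-dose levels were 20.7 to 22.5 and 19.1 to 20.3. Against vehicle KLHL24 was called lower with these extracts too, at -0.24 ± 0.07 with Paeoniae Radix high (adjusted p = 0.0046), -0.28 ± 0.07 with Cnidii Rhizoma high (adjusted p = 0.00048) and -0.46 ± 0.07 with Cnidii Rhizoma medium (adjusted p = 9.1e-07).

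Direct tests set Paeoniae Radix apart from 2 of these extracts at 500 against 20 µg/mL; both use the same Paeoniae Radix libraries. Against Rehmanniae Radix Preparata its change was higher for 8 members and lower for 0, where 1.31% and 0.5% of all genes were called. DDIT4 (1.06 ± 0.11, adjusted p = 1.9e-08), ATF3 (0.97 ± 0.19), CHAC1 (0.73 ± 0.18) and TRIB3 (0.45 ± 0.07) differed most, and 4 of the 6 stress effectors were called. CHAC1 lost its call without Paeoniae Radix high library 2 or Rehmanniae Radix Preparata low library 1 or 2. Against Cinnamomi Cortex 11 members had a higher and 1 a lower change, where 2.68% and 1.48% of all genes were called. CHAC1 (1.13 ± 0.18), ATF3 (1.04 ± 0.19), DDIT4 (0.92 ± 0.11) and TRIB3 (0.91 ± 0.07, adjusted p = 5.3e-12) differed most, with 5 of 6 stress effectors called and 0 of 6 serine and one-carbon enzymes. With the replicate block 2 of these 6 enzymes were called, MTHFD2 higher and MTHFD1L lower, and MTHFD2 was also called with DESeq2 and without a filter. ALDH18A1 was the lower one (-0.18 ± 0.04). KLHL24 (0.31 ± 0.09) lost its call in 9 of 12 fits without 1 library and DDIT3 (0.61 ± 0.16) in 5.

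The low doses themselves stood off the vehicle. The vehicle libraries carry a set of sample codes of their own, which no extract library shares. In any comparison with vehicle, extract and code set cannot be told apart. Over the mean of the 6 low-dose groups 15 members were higher and 2 lower than in vehicle with TMM scaling, against 18.1% and 14.4% of all genes, and 17 and 0 with library totals. ATF3 was at 1.75, 1.76 and 1.6 CPM in vehicle and at 2.42 to 3.38 in the 17 low-dose libraries, with no overlap (0.78 ± 0.13, adjusted p = 5.7e-06). NUPR1 (0.75 ± 0.24), DDIT4 (0.36 ± 0.07), TRIB3 (0.30 ± 0.04), GDF15 (0.24 ± 0.03), DDIT3 (0.24 ± 0.10) and GPT2 (0.24 ± 0.03) were higher, and CEBPB was lower (-0.22 ± 0.07) with TMM scaling. NUPR1 lost its call without vehicle library 1 or 2, DDIT3 without 2 or 3 and CEBPB without 2. ASNS (0.01 ± 0.03), ATF4 (0.02 ± 0.02), PPP1R15A (0.00 ± 0.04), CHAC1 (0.16 ± 0.11) and SESN2 (-0.01 ± 0.08) did not pass the test. The mitochondrial share of counts was 9.41% to 12.3% in vehicle and 7.55% to 10% at the low doses, and its part in these differences was not tested. Changes between doses of an extract are therefore not distances from DMSO.

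The members were also set directly against vehicle, in comparisons that share the 3 vehicle libraries and in which the code set differs along with the extract. Paeoniae Radix had 22 members higher and 1 lower at the high dose (15.7% and 11.3% of all genes) and 12 and 1 at the medium dose (12.2% and 9.18%). Cnidii Rhizoma had 22 and 2 at the high dose (20.6% and 17.5%) and 16 and 2 at the medium dose (16.0% and 11.7%). Astragali Radix had 16 and 0 at the high dose in a fit of its own (21.0% and 20.1% of 14801 genes) and 16 and 1 at the medium dose (19.1% and 16.0%). Cinnamomi Cortex had 9 and 2 at the high dose (15.2% and 11.1%) and 11 and 3 at the medium dose (14.5% and 10.4%). Rehmanniae Radix Preparata had 11 and 1 at the high dose (13.0% and 9.26%) and 8 and 2 at the medium dose (10.3% and 6.75%). Angelicae Gigantis Radix had 14 and 1 at the high dose (11.6% and 8.73%) and 10 and 1 at the medium dose (10.1% and 9.11%).

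The formulas had 1 library a dose, so their differences have no replicate check and no test. Samul-tang combines Paeoniae Radix, Cnidii Rhizoma, Rehmanniae Radix Preparata and Angelicae Gigantis Radix. Of the 24 members at 5 CPM or more, 0 differed by 0.5 or more on the log2 scale between high and low, where 0.651% of 10750 genes were higher and 1.07% lower. The members farthest from 0 were KLHL24 (17.2 against 23.2 CPM, -0.43), ASNS (65.7 against 50.9 CPM, 0.37), SESN2 (-0.31) and PSAT1 (109.6 against 89.2 CPM, 0.30). TRIB3 was at 39.3 against 39.1 CPM and DDIT3 at 5.23 against 6.15. For Sagunja-tang high against low 0 members passed the fold, where 0.242% and 0.484% of genes did, and EIF4EBP1 (0.29), KLHL24 (-0.26), TUBE1 (0.26) and SESN2 (-0.25) were farthest from 0. At the medium dose 0 members passed with either formula, against 0.214% and 0.149% of genes for Samul-tang and 0.112% and 0.149% for Sagunja-tang. The farthest were KLHL24 (-0.33), EIF4EBP1 (0.28), ASNS (0.13) and GDF15 (0.11) for Samul-tang, and PPP1R15A (-0.18), PSPH (0.10), DDIT4 (-0.10) and TUBE1 (0.09) for Sagunja-tang.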

How the data were processed

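The authors deposited expected counts per gene from RSEM 1.3.3, after FastQC 0.11.9, Trim Galore 0.6.5 and STAR 2.7.3a on hg38 (GRCh38), per the submitters' processing notes. Annotation release and strand setting: not given in the sources used here. Libraries were made with a directional kit and sequenced as paired 100 bp reads, per the labels' protocols. Of 273 columns 213 were not used, as they match no library of this series. Non-whole values (8.78%) were rounded, which changed no total by more than 0.000184%. Names came from a supplied identifier table (56558 entries) and GENCODE v29 (497).

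Counts were tested with edgeR 4.0.16 (R 4.3.3): TMM factors over 60 libraries, filtering by group, the quasi-likelihood F test and adjustment over all genes tested. SE is the log2 change over the square root of F. Groups came from the labels. One fit held 51 libraries in 18 groups. Astragali Radix high, with a far larger spread, was fitted with its low dose alone, and with Cnidii Rhizoma in 12 libraries; a fit of all 54 replicated libraries was an alternative. There were 18 tested comparisons, beside those of the high and medium dose of each plant with vehicle. The formulas were compared as log2 CPM with a prior count of 2. The members, lists, comparisons and naming rule were chosen with earlier results of these data known. Any member may be named. The 8 called members with the highest change, plus ATF4, DDIT3, TRIB3, CHAC1, ASNS, PSAT1, PHGDH and SESN2, are given in each dose comparison with a call, and the 4 highest in each difference and formula. Pathway genes are given by counts with at most 3 named per list. Same-numbered libraries deviated together (every pair's correlation over 0.1, over 10663 genes) in 4 of 12 dose comparisons: Paeoniae Radix high, Rehmanniae Radix Preparata high and both of Cinnamomi Cortex. There the replicate block ended no call and moved no count by over 1.5 times. It added GDF15 as lower with Cinnamomi Cortex high. In the shared fit this block gives a replicate number the same effect in all extracts. It therefore does not model pairing within an extract and cannot show whether the calls hold under such pairing. Alternatives were DESeq2 1.42.0, library totals, no filter, the replicate block, the 2 groups alone, the vehicle as reference, and leaving out each library. Total counts of 17798500 to 31134179 a library set the precision; genes under about 1 CPM rest on few counts.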

Additional observations from a re-analysis of the deposited data

Results flagged for a closer look

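The differences of dose changes named in the report passed a test of the difference itself (edgeR, adjusted p under 0.05), which is what marked them for a second look; none was marked for a single deviating library, since no group had 4 or more libraries. At 500 against 20 µg/mL the Cnidii Rhizoma change minus the Paeoniae Radix change was -0.70 for PPP1R15A, -0.69 for DDIT4, 0.65 for ASNS and 0.64 for PHGDH on the log2 scale. At 100 against 20 µg/mL the Cnidii Rhizoma change minus the Astragali Radix change was -0.45 for TRIB3, -0.27 for PPP1R15A and 0.15 for XPOT. Paeoniae Radix minus Rehmanniae Radix Preparata at the high dose gave 1.06 for DDIT4, 0.97 for ATF3, 0.73 for CHAC1 and 0.45 for TRIB3. Paeoniae Radix minus Cinnamomi Cortex at the high dose gave 1.13 for CHAC1, 1.04 for ATF3, 0.92 for DDIT4 and 0.91 for TRIB3. Astragali Radix minus Cnidii Rhizoma at the high dose gave 5.43 for PPP1R15A, 4.77 for ATF3, 4.20 for DDIT3 and 4.17 for SESN2.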

How the results depend on the processing

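With all 54 replicated libraries in 1 fit, which adds the Astragali Radix high-dose libraries to the shared spread, the members called fell to 8 for Paeoniae Radix high, 0 for Angelicae Gigantis Radix high, 0 for Cnidii Rhizoma medium, 1 for Rehmanniae Radix Preparata high, 1 for Astragali Radix medium, 1 for Cinnamomi Cortex high and 5 for the low doses against vehicle, and rose to 27 for Astragali Radix high (22 higher, 5 lower). The differences fell to 3 (Cnidii Rhizoma minus Paeoniae Radix), 1 (Cnidii Rhizoma minus Astragali Radix, medium), 1 (Paeoniae Radix minus Rehmanniae Radix Preparata) and 5 (Paeoniae Radix minus Cinnamomi Cortex). With the vehicle in place of the low dose, members called were 13 for Paeoniae Radix medium, 15 and 11 for Angelicae Gigantis Radix high and medium, 18 for Cnidii Rhizoma medium, 12 and 10 for Rehmanniae Radix Preparata high and medium, 17 for Astragali Radix medium, and 11 and 14 for Cinnamomi Cortex high and medium. Among named values called with either reference, 3 changed sign under the vehicle: PHGDH with Paeoniae Radix high (0.16), and DDIT4 (0.01) and PSAT1 (0.23) with Rehmanniae Radix Preparata high. Sign changes of values called with neither reference were not counted. For Angelicae Gigantis Radix high the count was 3 with DESeq2, 2 without a filter and 2 with the replicate block, and Cinnamomi Cortex high had 2 in a fit of the 2 groups alone. The cause of these shifts was not tested.

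Leaving out 1 library at a time gave 11 to 15 calls for Paeoniae Radix high, 0 to 1 for Angelicae Gigantis Radix high, 20 to 21 for Cnidii Rhizoma high, 1 to 3 for Cnidii Rhizoma medium and for Rehmanniae Radix Preparata high, 13 to 22 for Astragali Radix high, 2 to 4 for Astragali Radix medium, 2 to 5 for Cinnamomi Cortex high (2 without high-dose library 2, and 3 without high-dose library 1 or 3 or low-dose library 1) and 12 to 16 for the low doses. The differences, in the order of the report, gave 12 to 15 (Cnidii Rhizoma minus Paeoniae Radix), 12 to 22, 2 to 3, 6 to 9 and 10 to 12. Where a group of 2 was left with 1 library, that library was assumed to vary like the other groups.

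The replicate block gave 16 calls for Paeoniae Radix high, 21 for Cnidii Rhizoma high, 17 for Astragali Radix high (15 higher and 2 lower, ALDH18A1 and TUBE1) and 6 for Cinnamomi Cortex high (GDF15 added as lower), and it ended the calls of CEBPG with Astragali Radix high and DDIT3 at the low doses against vehicle (adjusted p for DDIT3 = 0.0555 in edgeR). For Angelicae Gigantis Radix medium the 2 pairs correlated at -0.113, and a block with the low-dose numbers crossed, added after seeing the data, also called 0 members. The crossed block was likewise shared over all extracts, so it does not test the pairing within this extract. Library totals changed the split of all genes by over 10 points also for Paeoniae Radix high (889 and 664 to 649 and 819), Angelicae Gigantis Radix high (99 and 90 to 72 and 115), Cnidii Rhizoma medium (277 and 226 to 158 and 340), Cinnamomi Cortex high (500 and 475 to 264 and 592), the low doses (3004 and 2393 to 4258 and 1490), Cnidii Rhizoma minus Paeoniae Radix (1215 and 1299 to 1003 and 1598), Cnidii Rhizoma minus Astragali Radix at the medium dose (609 and 244 to 856 and 160) and Astragali Radix minus Cnidii Rhizoma (2707 and 3223 to 1978 and 4616).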

Other observations

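Among the eIF2B subunits, the exchange factor that eIF2 phosphorylation inhibits, 0 of 5 were called with Paeoniae Radix high or Cnidii Rhizoma high by edgeR (1 of 5 had an unadjusted p under 0.05 in each), and 1 of 5, EIF2B2 (0.83 ± 0.15), was higher with Astragali Radix high, where 19.4% of all genes were. The share of all genes under the unadjusted threshold is not given here. At the low doses against vehicle 2 of 5 were higher and 1 lower, where 18.1% and 14.4% of all genes were. The cytosolic tRNA synthetases had 5 of 20 higher with Astragali Radix at 100 µg/mL, where 6.53% of all genes were called higher with TMM scaling (1085 genes, and 311 with library totals).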
